A study of Mus musculus with 6 samples.

Results

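The features described here are the unspliced pre-mRNA features of an eCLIP experiment on mouse Gtsf1, also named Asterix, which acts with PIWI proteins in transposon silencing and carries CHHC zinc fingers. eCLIP sequences the RNA that is recovered with a purified protein after ultraviolet light has joined RNA to protein. In all 6 libraries the source was P19, a mouse embryonal carcinoma line, taken 48 hours after transient transfection with a pEF plasmid in which the EF-1alpha promoter drives Gtsf1 with a C-terminal TEV-Strep tag. The groups were pull-downs on MagStrep beads from irradiated cells (254 nm, 400 mJ; n = 2), inputs of those lysates (n = 2), 1 pull-down without irradiation and 1 input without irradiation. No library of untransfected cells or of another tagged protein was analysed here, so the groups compare pull-down with input and irradiated with non-irradiated cells, not cells with and without the tagged protein. The members were the features that the deposited tables place in their pre-mRNA class and that had a mean of at least 1 RPM, the reads of a feature scaled to library size, over the 4 crosslinked libraries. They number 2557 of 13269 pre-mRNA features with any read, and 39872 features of all classes met the same minimum. The tagged gene Gtsf1, histone genes and 6 pluripotency genes were set aside by name, which removed 4 features.

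A pre-mRNA is the primary transcript of a gene, copied from exons and introns alike in the nucleus. The spliceosome removes the introns while the transcript is made or shortly after, and the exons alone form the mRNA that is exported to the cytoplasm. Reads that count as pre-mRNA therefore usually make up a small share of a gene's reads beside the exon reads of mature mRNA and the reads inside long introns.

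The rule by which a read was placed in the pre-mRNA class is not given in the sources used here. The tables list exons and introns as separate features, and for 2555 of the 2557 genes both were present. Over these genes the pre-mRNA reads of the crosslinked inputs followed the summed exon reads (Spearman's rank correlation 0.57) more than the summed intron reads (0.25). These are descriptions across genes within the same 2 libraries. The pre-mRNA feature had more reads than the gene's summed introns in 255 genes (9.98%) and more than its summed exons in 77 (3.01%). The word unspliced is the label of the class and could not be checked from the tables.

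The 6 libraries held 13168593 to 18418166 reads. Ribosomal RNA took 58.2% to 60.6% of the crosslinked libraries and 69.7% and 70.1% of the non-crosslinked input and pull-down. Reads without annotation made up 6.99% to 14.4%, with the higher values in the 3 pull-downs. Of 11 P19 markers, Dppa4 and Dppa5a had at most 0.0707 RPM in any library, and the sum of the list was 75.2 to 97.6 RPM in inputs and 57.0 to 68.4 RPM in pull-downs. The 5 endoderm markers summed to 0.0707 to 0.676 RPM in inputs and 2.71 to 4.11 RPM in pull-downs, mostly from Gata6, and Afp was at or near 0. The 4 neural markers summed to 14.2 to 18.3 RPM, and the mesoderm and germ cell lists to less than 1 RPM in each library. The part of these sums in the results was not tested. The lysates are bulk samples, in which fewer cells with a transcript and less of it per cell cannot be told apart, and RPM is a share, in which a fall of one class and a rise of others cannot be told apart.

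Ribosomal protein genes and translation factor genes are known for transcripts that start with a C followed by a run of pyrimidines, the 5′ terminal oligopyrimidine tract, and the ribosomal protein list below had the highest share of lower calls among the gene lists. RefSeq start sequences (GRCm38.p6) are therefore shown for 6 of the 12 members of these lists that have such a start and the most input reads: the 4 of the 12 called lower below and, of those not called, Rpl14 and Rpl38, which have the most input reads. Each runs from 10 bases before to 20 bases after the annotated start, 5′ to 3′ on the transcript's strand, with the pyrimidine run from the start in capitals. Rplp2 lies at chr7:141447641-141447670 (+), Rps6 at chr4:86857348-86857377 (−), Rpl35 at chr2:39005112-39005141 (−), Eif2s3x at chrX:94212632-94212661 (−), Rpl14 at chr9:120571507-120571536 (+) and Rpl38 at chr11:114668570-114668599 (+).
Rplp2: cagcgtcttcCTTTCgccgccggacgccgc
Rps6: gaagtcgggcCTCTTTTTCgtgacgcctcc
Rpl35: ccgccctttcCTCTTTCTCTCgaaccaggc
Eif2s3x: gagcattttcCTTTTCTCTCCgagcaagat
Rpl14: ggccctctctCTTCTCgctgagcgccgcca
Rpl38: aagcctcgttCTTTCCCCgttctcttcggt
A start of C and at least 4 further letters that are each C or T, read on the transcript's strand at the first base only, was present in 26.9% of the 52 ribosomal protein members with a RefSeq window, in 3.34% of the 2038 members with one and in 2.51% of all 32851 windows. Of the ribosomal protein members with it, 4 of 14 were called lower, and of those without it 13 of 38, with median log2 ratios of −0.77 and −0.59, a difference that was not tested. This split rests on the annotated first base, so a tract that begins a few bases away counts as absent. Among the other members with such an annotated start, 7 of 54 were called lower (13.0%, near the 11.5% of all members, while 3.5% of all features were).

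Most pre-mRNA features were lower in the crosslinked pull-downs than in the inputs. The class as a whole, all 13269 features included, held 1.29% and 1.12% of the reads of the 2 crosslinked inputs and 0.822% and 0.784% of the 2 pull-downs. The mean share went from 1.20% ± 0.122 (SD, n = 2) to 0.803% ± 0.0268 (SD, n = 2), a ratio of 0.668, with 0.638 and 0.703 for the replicates 1 and 2. Both pull-downs lay below both inputs, and a two-sided exact permutation test of 2 against 2 gave p = 0.33, the smallest it can give. The 95% Wilson interval of the replicate 1 pull-down was 0.818% to 0.827%, and such intervals cover counting error only, since PCR copies are not independent molecules.

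Of the 2557 members, 1941 (75.9%) had both crosslinked pull-downs below both inputs in RPM and 26 had both above, where 57.7% and 10.8% of all tested features did. The quasi-likelihood test of edgeR with Benjamini-Hochberg adjustment over all 39872 features called 294 members lower (11.5%) and 11 higher (0.430%) at an adjusted p under 0.05. Over all features it called 3.5% lower and 6.44% higher. The members' median edgeR log2 ratio, pull-down over input, stood at −0.52, against −0.26 for exon features, −0.19 for intron features and −0.21 for all features tested. The ratio was below 0 in 2378 members. The 294 called lower had ratios between −2.59 and −0.64 with a median of −0.98, and the input mean of a typical one was 2.11 times its pull-down mean. The labels do not say that the 2 replicates came from separate cultures, so these p-values measure only the spread between these samples.

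**Figure D1:**
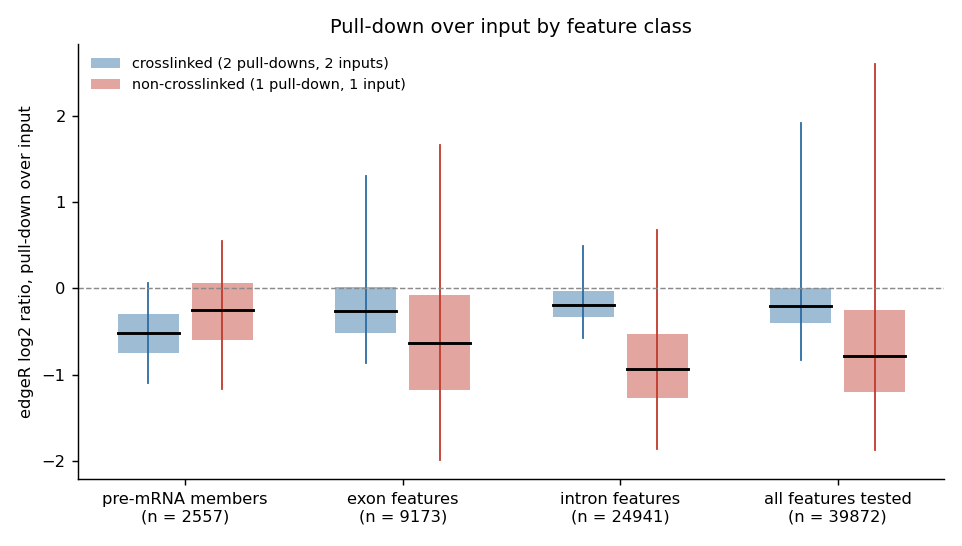
EdgeR log2 ratios of pull-down over input for the pre-mRNA members, exon features, intron features and all features tested, with crosslinking (blue) and without (red). Black lines are medians, boxes the middle 50% and thin lines the 5th to 95th percentile over features. The pre-mRNA members have the lowest median of the 4 sets with crosslinking (−0.52) and the highest without it (−0.25).

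How many members were called depended on the scaling and the tool. Factors by TMM moved the median of all features from −0.21 to near 0 and left 88 members lower (3.44%, against 1.57% of all features) and 12 higher (0.469% against 6.89%). DESeq2 left 4 lower (0.165% of the members with an adjusted p, against 0.624% of such features) and 11 higher (0.453% against 6.56%), 10 of them among the 11 of edgeR. Scaling to the members themselves left 20 lower (0.782% against 0.742%) and 24 higher (0.939% against 10.7%). The share of lower calls was thus above that of all features in edgeR with library sizes or TMM, near it when centred on the members and below it in DESeq2. These scalings shift all features together, so the median of the members minus that of all features stayed at −0.31 by construction. Without the input of replicate 1 or 2 the members' median log2 ratio was −0.43 or −0.59, and that of all features −0.15 or −0.24. Without the pull-down of replicate 1 or 2 the members' median was −0.56 or −0.49, and that of all features −0.25 or −0.16.

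The minimum of 1 RPM was taken over inputs and pull-downs together, so some members could pass only through 1 group. Of the members, 2046 had a mean of at least 1 RPM in both groups, 492 only in the inputs and 19 only in the pull-downs. A member of the 492 had to be lower and one of the 19 higher, and counts over all members carry this. Among the 2046 the median log2 ratio was −0.47. Of the 294 called lower, 215 had a pull-down mean of at least 1 RPM. At the edge of the rule, Adipor1, Actr8 and Wdr45b lay just inside at 1.00 RPM, and Ankrd27 and Nr5a1 just outside at 1.00 RPM after rounding. The median difference between the 2 inputs was 0.14 on the log2(RPM + 1) scale and that between the 2 pull-downs 0.07, and the members' median pull-down over input on that scale was −0.40 (−0.45 and −0.37 by replicate).

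In the crosslinked libraries the same genes had median ratios nearer to 0 in their exons and introns than in their pre-mRNA feature, a difference that was not tested. On the log2(RPM + 1) scale the median over 2555 genes was −0.40 for the pre-mRNA feature, −0.21 for the summed exons and −0.25 for the summed introns. The order differed without crosslinking, at −0.24, −0.35 and −0.76. Among the 294 genes called lower, the summed exons had a median of −0.32 and the summed introns of −0.28, beside −0.73 for the pre-mRNA features that the call chose. These are values from the same libraries and not independent of their depth.

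A share within a gene needs no scaling between libraries. The pre-mRNA feature took a median of 9.24% and 8.68% of a gene's own pre-mRNA, exon and intron reads in the crosslinked inputs and 7.22% and 6.83% in the pull-downs. The mean of these medians went from 8.96% ± 0.402 (SD, n = 2) to 7.02% ± 0.274 (SD, n = 2), with no overlap and p = 0.33 in the exact permutation test, again the smallest possible. In the non-crosslinked pair the same median went the other way, from 14.05% in the input to 17.1% in the pull-down. Gene by gene, both crosslinked pull-downs lay below both inputs in 1421 genes and above in 95. The non-crosslinked pull-down lay above its input in 1809 genes and below in 746, and 1153 genes were below in both numbered crosslinked pairs and above in the non-crosslinked one. That pair has 1 library a group, and the difference in direction was not tested.

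**Figure D2:**
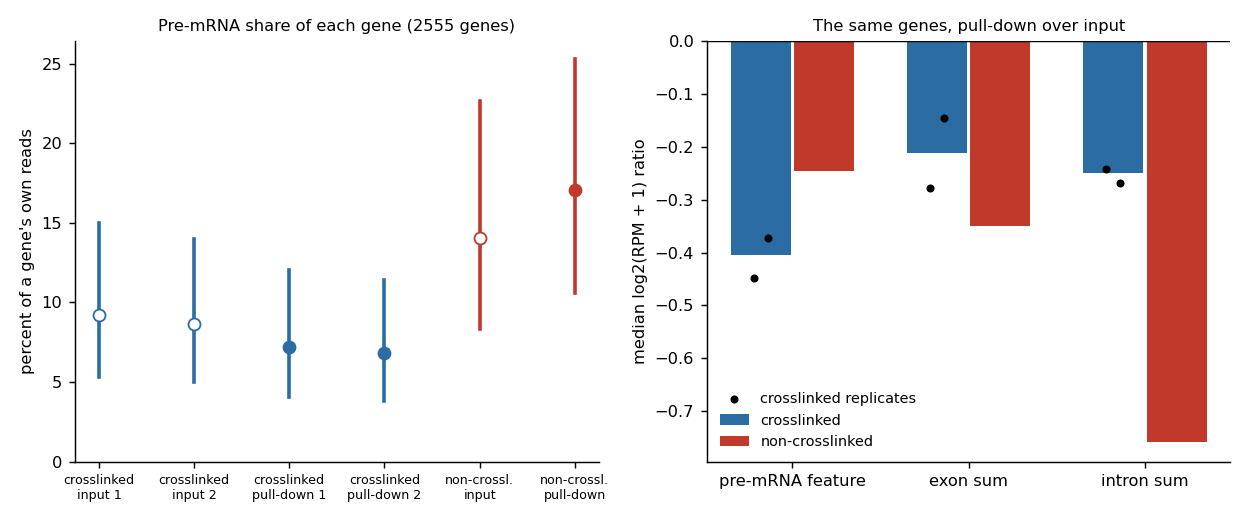
Left, the percentage of a gene's own reads that fall in its pre-mRNA feature, in each of the 6 libraries, with the median as a point and the middle 50% of 2555 genes as a line (open points are inputs, filled ones pull-downs). The median is 9.24% and 8.68% in the inputs against 7.22% and 6.83% in the pull-downs with crosslinking, and 14.05% against 17.1% without. Right, the median log2(RPM + 1) ratio of pull-down over input for the pre-mRNA feature, the exon sum and the intron sum of the same genes, with black points for the 2 crosslinked replicates.

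With library sizes as the scaling, the members' median ratio without crosslinking was nearer to 0 than with it, and nearer to 0 than that of all features. Neither holds under TMM, as given below. Of the members, 1988 (77.7%) had a lower RPM after the pull-down when cells were not irradiated, against 84.3% of all features tested. The class held 1.22% of the reads of that input and 0.953% of the pull-down, a ratio of 0.782. With ribosomal RNA and unannotated reads left out, the same ratio was 1.11 without crosslinking and 0.769 with it. A fit over all 6 libraries, which assumes that the lone non-crosslinked libraries vary like the crosslinked ones, called 53 members lower and 12 higher, while over all features it called 7.96% lower and 5.01% higher. The median edgeR log2 ratio was −0.25 for the members and −0.78 for all features, a difference of 0.53. Relative to the median of all features in each comparison, 82.0% of the members lay below it with crosslinking and 84.0% above it without. The direction of the non-crosslinked median depends on the scaling: TMM, which brings the median of all features there near 0, gave a members' median of 0.54 (−0.32 with crosslinking) with 76 higher (2.97%, against 6.18% of all features) and 1 lower (0.0391% against 0.271%). With library sizes as the scaling and any 1 crosslinked library left out, the non-crosslinked medians stayed at −0.25 for the members and −0.78 for all features.

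The difference between the 2 ratios was tested directly. No member passed, and no other feature did (0% higher and 0% lower over all features tested). At an unadjusted p under 0.05, edgeR had 23 members with a higher crosslinked ratio and 151 with a lower one (6.80% of the members in all, against 13.6% of all features), and the lowest adjusted p among members was 0.335. DESeq2 called 1 member in this test, Fstl4, with 2014 members given no adjusted p, and so did edgeR without the replicate 1 input. Over all features with an adjusted p, DESeq2 called 0.121% higher and 2.22% lower, and edgeR without that input 0.0677% higher and 0.303% lower. The median SE of this difference was 0.41 on the log2 scale, against 0.22 for the crosslinked ratio. The median difference was −0.26 for members and 0.56 for all features. Values at the 2 ends are given with no call. Tfdp2, a partner of the E2F cell cycle transcription factors, had 1.55 and 1.41 RPM in the crosslinked inputs, 1.05 and 1.39 in the pull-downs, and 3.18 against 0.532 RPM without crosslinking. Its crosslinked pull-downs were close below the inputs (edgeR log2 ratio −0.18, adjusted p 0.748), while the non-crosslinked pull-down was far below its input (fit over 6 libraries, log2 ratio −2.46, adjusted p 0.00992). Epg5, an autophagy protein, had 2.00 and 1.68, then 0.993 and 1.26, then 2.12 against 0.304 RPM. Dhx57, Lap3 and Gm10801 were the others at that end, with differences of 1.99 to 2.64. The lone non-crosslinked pull-down held few reads of these members: 7 of Tfdp2, 4 each of Epg5, Dhx57 and Lap3, and 1 of Gm10801. At the opposite end Zeb2, a zinc-finger repressor, had 2.291 and 1.57 RPM in the crosslinked inputs and 0.807 and 1.01 in the pull-downs, but 1.27 against 2.43 RPM without crosslinking. Mybl2, Tulp4, Pdap1 and Fstl4 lay there too, with differences of −4.54 to −1.91.

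**Figure D3:**
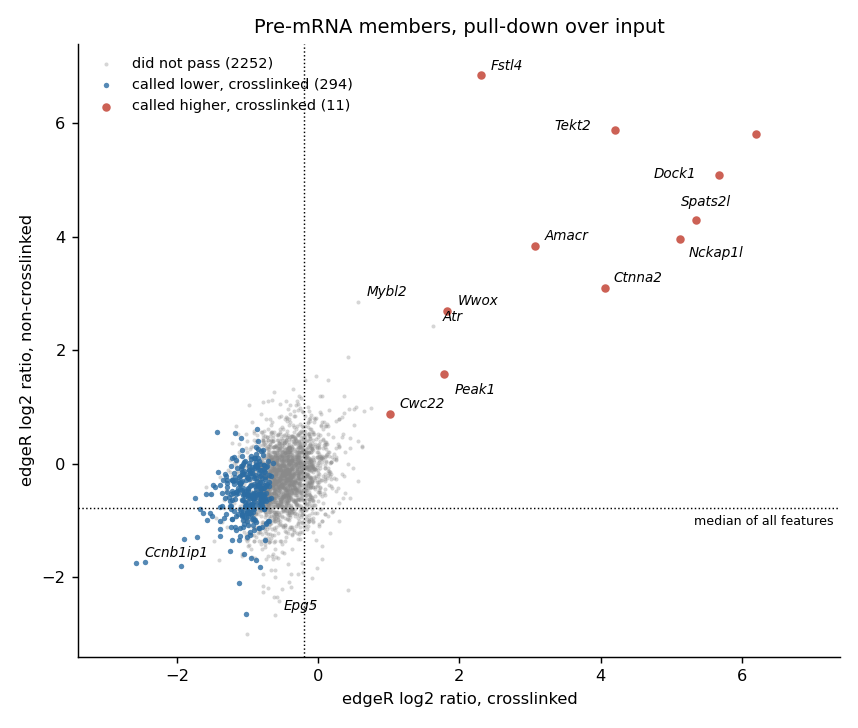
Each of the 2557 pre-mRNA members by its edgeR log2 ratio of pull-down over input with crosslinking (x axis) and without (y axis). Blue points are the 294 called lower with crosslinking, red points the 11 called higher, grey points the rest, and dotted lines the medians of all features tested (−0.21 and −0.78). Most members sit left of the vertical and above the horizontal dotted line, and the 11 higher ones lie at the upper right.

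Ccnb1ip1 had the lowest ratio and also the most pre-mRNA reads of any member, which is an order by reads and not by level per length. It encodes HEI10, a ligase of meiotic crossover sites, and lies at chr14:50789249-50795728 in RefSeq. Its pre-mRNA feature had 132.1 and 124.2 RPM in the crosslinked inputs, 19.1 and 20.9 RPM in the pull-downs and 165 against 45.8 RPM without crosslinking. All pull-downs were far below all inputs. The fall was 6.40-fold with crosslinking (edgeR log2 ratio −2.59 ± 0.184 SE, adjusted p 0.000425) and 3.59-fold without (log2 ratio −1.74, adjusted p 0.0130 in the fit over 6 libraries). Its intron 1 had 32.1 and 34.1 RPM in the crosslinked inputs and 13.7 and 11.8 RPM in the pull-downs (log2 ratio −1.28, adjusted p 0.00501), while intron 2 had −0.41 and did not pass. Its RefSeq span holds no snoRNA, snRNA, guide RNA or miRNA gene.

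The other members with the lowest ratios included 2 ribosomal protein genes and a translation factor. Rps18, a protein of the small ribosomal subunit, had 2.63 and 2.55 RPM in the crosslinked inputs, 0.124 and 0.758 RPM in the pull-downs and 4.88 against 1.37 RPM without crosslinking. Both pull-downs were low, though they differ from each other at 2 and 12 reads (log2 ratio −2.45 ± 0.440 SE, adjusted p 0.0184). Rpl31, of the large subunit, had 8.82 and 8.80 RPM in the inputs, 3.04 and 1.96 RPM in the pull-downs and 12.4 against 4.71 RPM without crosslinking (−1.72 ± 0.213, adjusted p 0.00369). Eif1, a factor of start codon selection, had 3.84 and 2.93 RPM, then 0.465 and 1.14 RPM, then 4.59 against 1.22 RPM (−1.95 ± 0.327, adjusted p 0.0141). Some Eif1 reads were split with other features by the counting, so its value is less certain. In all 3 genes every pull-down was below every input.

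The remaining lowest members were Srgap2, a GTPase activator of neurons (−1.90), Lmbrd2 (−1.75), Clasp2, which binds growing microtubule ends (−1.68), Casd1 (−1.63), Mark1, a microtubule-affinity kinase (−1.60), and Sik1, a salt-inducible kinase (−1.57). Srgap2 had 2.23 and 2.28 RPM in the crosslinked inputs, 0.496 and 0.632 in the pull-downs and 2.47 against 0.911 without crosslinking, with no overlap (adjusted p 0.00223). Its most-read intron did not pass, at 7.19 and 6.70 RPM in inputs and 6.51 and 5.30 RPM in pull-downs. The introns of Clasp2, Casd1 and Mark1 with the most reads did not pass, with log2 ratios of −0.35, −0.12 and −0.26. Of the 2 most-read exons or introns of the other lowest members, exon 4 of Rpl31 (−1.65, adjusted p 0.0185) and exon 18 of Lmbrd2 (−0.68, adjusted p 0.0432) passed, and those tested of Rps18, Eif1 and Sik1 did not. The calls of 2 of these genes rest on single libraries: Casd1 had an adjusted p of 0.067 without the replicate 1 input and 0.100 without the replicate 1 pull-down, and Sik1 of 0.059 without the latter.

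Of the 8 members with the most input reads, 3 were called lower. Besides Ccnb1ip1 these were Rpl4, of the large ribosomal subunit, and Huwe1, a HECT-type ubiquitin ligase. Rpl4 had 45.8 and 37.7 RPM in the crosslinked inputs and 21.7 and 22.6 in the pull-downs (log2 ratio −0.82, adjusted p 0.0356), and 47.1 against 33.4 RPM without crosslinking. Its RefSeq span holds snoRNA genes, which did not move together. Gm23344 had 38.9 and 38.1 RPM in the inputs and 4.86 and 14.4 in the pull-downs (adjusted p 0.0537), while Gm23136 rose from 6.24 and 6.24 to 11.4 and 17.5 RPM (log2 ratio 1.31, adjusted p 0.0203). Snord16a and Gm22571 had log2 ratios of 1.04 and 0.63 and did not pass, and the part of these genes in the Rpl4 value was not tested. Huwe1 had 44.2 and 35.3, then 22.3 and 21.3 RPM (−0.78, adjusted p 0.0460). Leaving out any single library ended the calls of Rpl4 and Huwe1. Eef2, the translocase of elongation, had 62.1 and 52.9 RPM in the inputs, 37.0 and 44.5 in the pull-downs, and 65.9 against 75.6 RPM without crosslinking. Its pull-downs were lower with crosslinking and higher without, and neither ratio passed (adjusted p 0.279 and 0.458). Npm1, Eef1a1, Lrp2 and Rplp0 had log2 ratios of −0.91 to −0.46 and did not pass.

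With crosslinking 11 members were called higher, and all 11 also had a higher RPM in the pull-down without crosslinking. The fit over 6 libraries called 9 of them there too, all but Tekt2 and Cwc22. The other 3 called higher there were Mybl2, Arhgdia and Mink1. Mink1, a kinase of the germinal center family, had 3.21 and 3.04 RPM in the crosslinked inputs and 2.54 and 2.02 in the pull-downs, but 1.34 against 3.11 RPM without crosslinking. None of the 11 belongs to one of the gene lists. In 9 of the 11 the inputs averaged under 1 RPM, so these entered through the pull-downs. Tekt2, Ctnna2 and Wwox have some reads split with other features.

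Values are given here for 10 of the 11. In 3 of these the inputs had almost no reads. Dock1, a guanine nucleotide exchange factor of Rac (chr7:134670687-135173647), had 2 and 0 reads in the inputs, 45 and 52 in the pull-downs and 1 against 33 without crosslinking, a pooled crosslinked ratio of 54.5 with an exact 95% counting interval of 14.7 to 456. Spats2l had 2 and 2 reads, then 65 and 80, then 3 against 53, a ratio of 40.7 (15.6 to 151). Nckap1l, the blood-cell subunit of the WAVE actin complex, had 1 and 1, then 28 and 38, then 1 against 15 reads, a ratio of 37.1 (9.86 to 312). In all 3 genes every pull-down was far above every input. All 3 passed the edgeR test with adjusted p of 0.000354 to 0.000713, and their fitted log2 ratios of 5.12 to 5.68 depend on the prior count.

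The other 7 of the 10 had more input reads. Tekt2, a tektin of ciliary and sperm-tail microtubules, had 0.344 and 0.597 RPM in the crosslinked inputs, 13.7 and 3.00 in the pull-downs and 0.106 against 8.24 without crosslinking (log2 ratio 4.21 ± 0.857 SE, adjusted p 0.0298). Its 2 pull-downs differ widely, and both are above all inputs. Ctnna2, the neural alpha-catenin, had 0.344 and 0.109, then 3.41 and 3.82, then 0.495 against 4.02 RPM (4.06 ± 0.320, adjusted p 0.00055). Amacr, a racemase of branched fatty acids, had 0.458 and 0.760, then 5.15 and 4.68, then 0.565 against 7.67 RPM (3.08 ± 0.229, adjusted p 0.000478). In both genes the 3 pull-downs lay above every input, close to each other in Ctnna2 and with the non-crosslinked one highest in Amacr.

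Fstl4, a follistatin-like secreted protein (chr11:52764489-53192450), was the member with the widest gap between the conditions. It had 0.687 and 1.90 RPM in the crosslinked inputs, 8.00 and 4.23 in the pull-downs and 0.424 against 46.5 without crosslinking. The ratio of pooled reads was 4.68 with crosslinking (counting interval 3.39 to 6.59; edgeR log2 ratio 2.31 ± 0.467 SE, adjusted p 0.0291) and 109.6 without (50.1 to 299.9). The crosslinked call was lost with the replicate block (adjusted p 0.069). The difference between the ratios, −4.54, had an adjusted p of 0.335. Its intron 3 had the same order, with 6.01 and 10.6, then 53.9 and 31.0, then 4.18 against 304 RPM.

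Wwox, an oxidoreductase gene at a chromosomal fragile site, rose from 0.458 and 0.543 RPM to 1.86 and 1.48 (log2 ratio 1.83, adjusted p 0.00449). Peak1, a pseudokinase, rose from 0.458 and 0.597 RPM to 1.55 and 1.90 (1.78, adjusted p 0.00656). Cwc22, a splicing factor that helps to place the exon junction complex, rose from 1.15 and 1.30 RPM to 2.48 and 2.21 (1.02, adjusted p 0.0160), and went from 1.41 to 2.43 RPM without crosslinking. Cwc22 was the only one of the 11 to lose its call when a crosslinked library was left out, either the replicate 1 input or the replicate 1 pull-down, and DESeq2 did not call it (adjusted p 0.17). Atr, the checkpoint kinase of replication stress, was chosen after its values were seen. It had 5.73 and 6.08 RPM in the crosslinked inputs, 27.1 and 7.39 in the pull-downs and 4.95 against 24.8 without crosslinking, and the spread of its pull-downs left it short of the threshold (adjusted p 0.140).

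Single introns of some of these genes were also higher in the pull-downs. Intron 49 of Dock1 had 4.14 and 3.19 RPM in the crosslinked inputs, 87.5 and 108 in the pull-downs and 1.82 against 104 RPM without crosslinking. Intron 19 of Cwc22 had 1.66 and 0.958, then 11.99 and 14.8, then 0.743 against 14.6 RPM. Intron 35 of Atr had 0.172 and 0.190, then 3.50 and 4.77, then 0.141 against 4.01 RPM. In these 3 introns the non-crosslinked pull-down lay between the crosslinked ones. The most-read introns of Ctnna2, Wwox and Peak1 were not called higher, with log2 ratios of −0.40, −0.25 and −0.11 and adjusted p of 0.219 to 0.756.

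**Figure D4:**
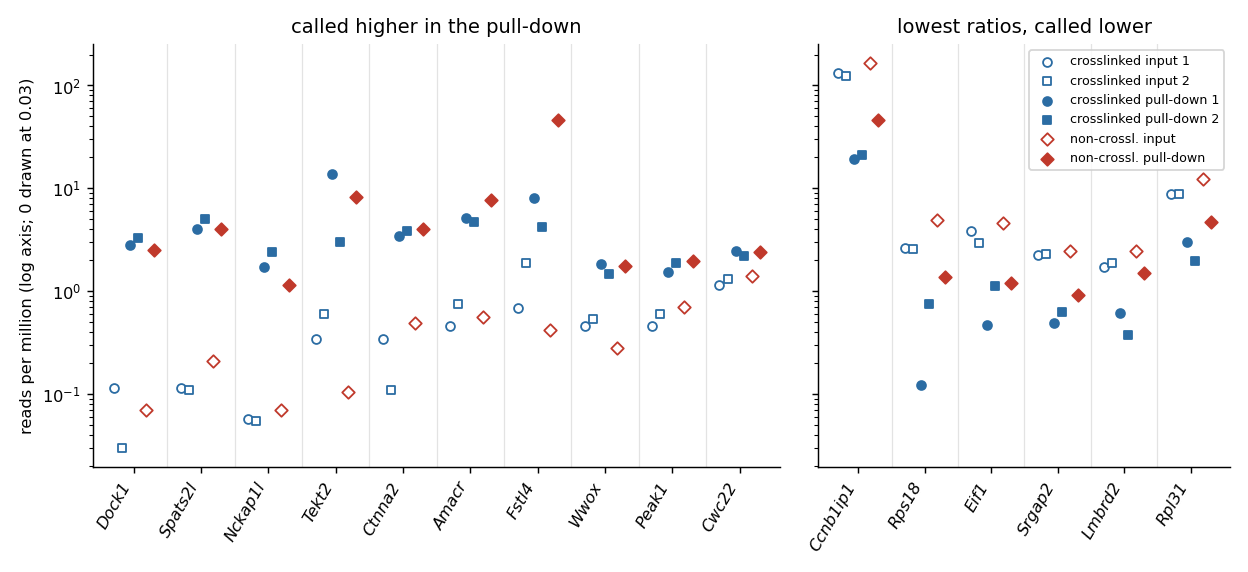
RPM of 10 of the 11 pre-mRNA members called higher and of 6 of the members with the lowest ratios, in each library on a log axis (blue, crosslinked; red, non-crosslinked; open, inputs; filled, pull-downs; a value of 0 is drawn at 0.03). In every gene on the left the 3 filled points lie above the 3 open ones, and in every gene on the right below them.

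The gene types behind the members were nearly uniform. Of the 2557, 2539 matched a protein-coding gene of RefSeq, 16 matched no single gene, and 1 each was a lncRNA and a transcribed pseudogene. Of 22 gene lists made by symbol, 19 had members, and 3 (mitochondrial ribosomal proteins, the piRNA pathway, and host or nuclear lncRNAs) had none. In all 19 lists the median edgeR log2 ratio was below 0 with crosslinking and below the median of all features (−0.21), and without crosslinking it was above the median of all features (−0.78). No list had a higher call. Centring on the members puts their own median near 0, so lists with a median above that of all members (−0.52) lie above 0 there. The lists were made with results of these data known and their medians are descriptions with no test.

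Ribosomal protein genes, which together supply the protein part of the ribosome, had the most calls. Of 73 members 22 were called lower (30.1%, against 3.5% of all features and 11.5% of all members), and the other 51 did not pass. Their median log2 ratio was −0.70 with crosslinking and −0.30 without. Their median input level was 6.94 RPM, against 2.24 RPM for all members. Of all members at a mean of 5 to 10 RPM 16.7% were called lower, and the part of level in the 30.1% was not tested. In 60 of the 73 ribosomal protein members both pull-downs lay below both inputs (82.2%, against 57.7% of all features). Rps6 had 9.85 and 7.82 RPM in the crosslinked inputs, 3.60 and 3.66 in the pull-downs and 13.5 against 9.87 without crosslinking (log2 ratio −1.19, adjusted p 0.00828). Rpl35 had 4.47 and 4.29, then 1.74 and 1.71, then 7.42 against 4.404 RPM (−1.25, adjusted p 0.00383). In both genes, whose starts are printed above, the crosslinked pull-downs were below every input. The non-crosslinked pull-down was below its own input, while for Rps6 it was above both crosslinked inputs and for Rpl35 it lay between them. Within the 73 genes, the share of a gene's own reads that fell in its pre-mRNA feature was lower too, from a median of 25.8% and 26.0% in the inputs to 19.8% and 20.4% in the pull-downs. Without crosslinking that share was 39.8% and 37.8%, and it was higher in the pull-down in 18 of the 73, against 1809 of the 2555 genes of all kinds. These genes have many processed copies in the genome, and 4 of the 73 had reads split with other features.

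Of 59 ubiquitin-pathway members 11 were called lower (18.6%, against 3.5% of all features and 11.5% of all members). In 57 both pull-downs lay below both inputs (96.6%, against 57.7% of all features), and the median was −0.69 (−0.28 without crosslinking). Cul4b, a cullin scaffold of ubiquitin ligases, had 3.78 and 3.47 RPM in the inputs and 1.37 and 1.01 in the pull-downs (−1.51, adjusted p 0.00377). Of 39 translation factors 7 were called lower (17.9%), with a median of −0.61. Pabpc1, the cytoplasmic poly(A)-binding protein, had 21.9 and 19.2 RPM in the inputs, 8.69 and 8.97 in the pull-downs (−1.13, adjusted p 0.00683) and 27.3 against 21.6 without crosslinking. Chaperones had 5 of 23 lower (21.7%), among them Cct4 of the cytosolic chaperonin (7.85 and 5.76 against 2.79 and 2.59 RPM, −1.24, adjusted p 0.0125). Of 43 snoRNA host genes, several of which are also ribosomal protein genes, 8 were called lower (18.6%) with a median of −0.51.

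With crosslinking, splicing genes had the medians nearest to that of all features (−0.21). Without crosslinking the proteasome list was nearest, at −0.51 against −0.78 for all features. The 23 spliceosome members had a median of −0.29 (−0.17 without crosslinking) and 1 lower call with crosslinking (4.35%, near the 3.5% of all features). It was Son, which every library left out removed (3.21 and 2.93 against 1.86 and 1.77 RPM, −0.66, adjusted p 0.0496). The 38 SR and hnRNP genes, many of which splice their own transcripts in alternative ways, had a median of −0.30 (−0.30 without crosslinking). Of the 38, 5 were called lower with crosslinking (13.2%, against 11.5% of all members). Tra2a was one of them, at 3.15 and 2.50 against 1.12 and 0.948 RPM (−1.35, adjusted p 0.00961). Hnrnpa1 and Hnrnpu, with the most input reads of that list, had −0.25 and −0.29 and did not pass, and Prpf8 and Sf3b3 of the spliceosome had −0.61 and −0.45 and did not pass. Whether these lists differ from the other members was not tested.

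Of 76 chromatin regulators 5 were called lower (6.58%, against 3.5% of all features and 11.5% of all members), with medians of −0.42 with crosslinking and −0.08 without. Kdm1a, a histone demethylase, had 4.35 and 4.56 RPM in the inputs and 1.80 and 2.09 in the pull-downs (−1.11, adjusted p 0.00931), while Chd4 and Kmt2d, with the most input reads, had −0.52 and −0.39 and did not pass. Nuclear pore and transport genes had 5 of 38 lower (13.2%) with a median of −0.58. Among them were Ranbp2 of the pore filaments (5.27 and 5.65 against 2.42 and 2.53 RPM, −1.05, adjusted p 0.00934) and Xpo1, the main exporter of proteins (−0.94, adjusted p 0.0306, lost without the replicate 1 input or the replicate 2 pull-down). The 45 cytoskeleton and motor genes had 5 lower (11.1%) and the 44 cell cycle and replication genes 4 (9.09%). The 33 RNA helicases had 4 (12.1%) and the 22 Rik and Gm genes 4 (18.2%). The medians of these 4 lists were −0.59 to −0.48. The 17 C2H2 zinc-finger genes, 19 respiratory chain genes and 31 solute carriers had 2 lower calls each (11.8%, 10.5% and 6.45%), and the 19 proteasome genes 1 (5.26%). Atp5g2, a subunit of the ATP synthase ring, had 7.79 and 6.03 against 2.48 and 3.03 RPM (−1.23, adjusted p 0.0129), and Psme4, a proteasome activator, 14.3 and 12.7 against 6.08 and 6.51 RPM (−1.003, adjusted p 0.0101). None of the 22 aminoacyl-tRNA synthetases or of the 14 genes listed for tRNA processing and modification was called, with medians of −0.46 and −0.44, and lists this short would hold few calls at the 3.5% of all features. The latter list was made by symbol and also holds Larp1, a regulator of ribosomal protein mRNAs. The 1913 members in no list had 209 lower and 11 higher calls and a median of −0.52.

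**Figure D5:**
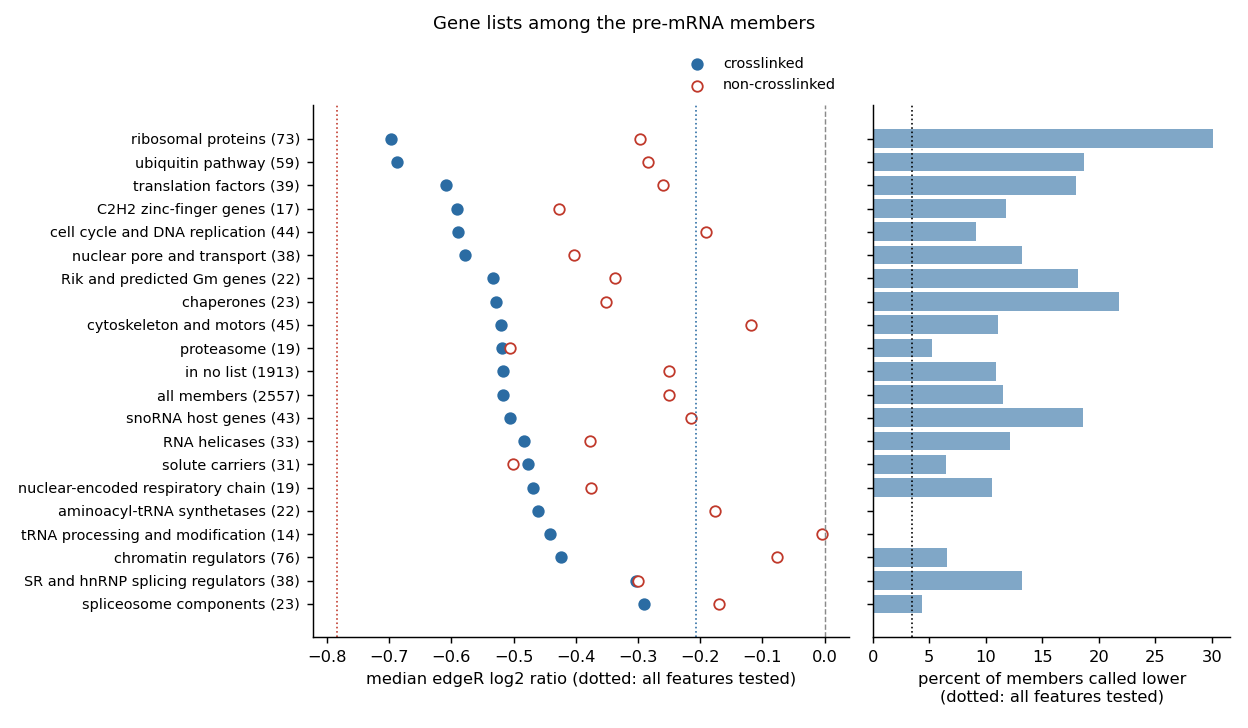
Left, the median edgeR log2 ratio of the members of each gene list with crosslinking (filled blue) and without (open red), with the number of members in brackets and dotted lines at the medians of all features tested. Right, the percentage of each list called lower with crosslinking, with a dotted line at 3.5% for all features tested. Ribosomal proteins have the lowest median (−0.70) and the highest percentage (30.1%).

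Reads, length, small RNA genes and GC content were set beside the calls. The percentage called lower went up with the number of reads, from 8.57% of the 1377 members at 1 to 2 RPM to 22.2% of the 18 at 20 RPM or more, while the median log2 ratio stayed between −0.60 and −0.49 in all 5 bins. By RefSeq gene length the medians of 6 bins ran from −0.42 for 10 to 20 kb to −0.60 for the bin next to the longest, which starts at 100 kb. Of the 11 higher members, 6 were among the 185 longest genes (3.24% of these, below the 6.44% of all features called higher). The 148 members whose span holds a snoRNA gene had 27 lower calls (18.2%), 3 higher (2.03%) and a median of −0.58, and the 2123 whose span holds no small RNA gene had 240 lower (11.3%), 8 higher (0.377%) and −0.52, where 3.5% and 6.44% of all features were called. By GC content of the start window the medians ran only from −0.52 to −0.49. None of these splits was tested.

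The authors' deposited table, whose ratio is not explained in the sources used here, lists 2347 of the members. In the authors' deposited table the median ratio of these members is 0.596 and 1950 of them (83.1%) are below 1, against 25.4% of all 216085 features it lists. Ccnb1ip1 stands at 0.0417 and Spats2l at 70.4 in the authors' deposited table, the same directions as in the values above.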

How the data were processed

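The members and gene lists were chosen with earlier results of these data known. The authors deposited, for each of the 6 libraries, an expected count and an RPM value per annotated feature. Some reads are split into fractions between features, per the values in the deposited files, and the deposited RPM is that count scaled to all reads of the library, unannotated ones included. A further deposited table gives 1 enrichment ratio per feature, with no formula. The submitters' processing notes name bcl2fastq 2.19, STAR 2.5.2b, bedtools 2.29.0 and the build mm10. Strand use and removal of PCR duplicates are not given in the sources used here.

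Counts were rounded and compared with edgeR 4.0.16 (quasi-likelihood, R 4.3.3, legacy option), with annotated reads as library sizes, over the 39872 features of all classes that met the 1 RPM minimum. Reads without annotation (6.99% to 14.4%) stayed out of the test. The threshold was a Benjamini-Hochberg adjusted p of 0.05. The non-crosslinked ratio and the difference between ratios came from 1 fit over 6 libraries in 4 groups. Descriptive ratios used log2(RPM + 1), which understates changes of low features. Alternatives were TMM, other library sizes, centring on the members, DESeq2 1.42.0, limma 3.58.1, other filters and pseudocounts, a replicate block and each crosslinked library left out. The fits were tested on simulated counts.

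Named genes were all members called higher, the 10 called lower with the lowest ratio and no overlap, the 8 with the most input reads, the 5 highest and 5 lowest differences between conditions, and the 2 with the most input reads of each list. Values of 3 members that this rule names are not reported here, and all counts include them. A further 14 named genes were chosen after their values were seen, most as examples of called members in a list. Gene names were matched to RefSeq (GRCm38.p6) by symbol or single synonym for 2541 members. One read was worth 0.0543 to 0.0759 RPM.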

Additional observations from a re-analysis of the deposited data

Results flagged for a closer look

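The median pre-mRNA percentage of a gene's own reads moved in opposite directions with and without crosslinking. It was lower in the pull-down by 2.02 and 1.84 percentage points in the crosslinked pairs (−2.02 and −1.84) and higher by 3.03 percentage points in the non-crosslinked pair, which has 1 library a group. The difference was not tested.

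The pre-mRNA share of annotated reads other than ribosomal RNA also moved in opposite directions. Its ratio of pull-down over input was 0.755 and 0.782 in the crosslinked pairs and 1.11 in the non-crosslinked pair. This difference was not tested either. Beside it, ribosomal RNA took 58.2% to 60.6% of the crosslinked libraries and about 70% (69.7% and 70.1%) of the non-crosslinked ones, and its part in the result was not tested.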

How the results depend on the processing

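The count of members called lower with crosslinking (294) was 88 under TMM, 503 with unannotated reads in the library sizes, 187 without ribosomal RNA, 20 centred on the members, 4 under DESeq2, 493 under limma, 180 and 61 at minimums of 2 and 5 RPM, 0 with no minimum (edgeR, 959 lower and 13 higher at an unadjusted p under 0.05, 38.0% of the members in all against 4.44% of all features), and 160 to 534 with 1 library left out. The count called higher was 11, beside 2566 features. It was 24 centred on the members (4279 features), 5 and 0 at minimums of 2 and 5 RPM (1423 and 551 features) and 0 with no minimum. The 88, 187, 20 and 4 are all among the 294. The higher minimums remove most higher members by level, and fewer features were then tested. The cause of the other changes was not tested. The labels number 2 pairs, whose replicate differences correlated at 0.111 over all features. With the replicate block 369 members were called lower, 238 of them among the 294, and 10 higher, without Fstl4. Over all features the block gave 1655 lower and 2529 higher.

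The crosslinked median of −0.40 was −0.49 and −0.58 at pseudocounts of 0.5 and 0.1 RPM, −0.48 and −0.53 at the 2 minimums and −0.47 to −0.34 with 1 library left out. The non-crosslinked median of −0.24 was −0.34 at a pseudocount of 0.1, −0.18 per annotated reads and 0.14 per annotated reads without ribosomal RNA. The test of the difference called 1 member under DESeq2, which gave no adjusted p to 2014 members, and 0 to 1 with 1 library left out. Without crosslinking, 53 lower became 1 under TMM, 104 with unannotated reads, 21 at 5 RPM, 6 without ribosomal RNA and 94 to 110 with 1 library left out, and 12 higher became 76 under TMM and 0 at 5 RPM. The share ratio of 0.668 was 0.712 over annotated reads, 0.769 over these without ribosomal RNA and 0.623 to 0.720 with 1 library left out. The intron sums' −0.25 was −0.27 at a pseudocount of 0.1 and −0.28 at 5 RPM.

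Of 1278 recomputed ratios of 79 named members, 1094 kept direction and call, 120 lost the call, 31 gained one and 33 changed direction, none of the 33 called. Centred on the members, ratios above 0 were found for Eef2 (0.12), Eef1a1 (0.058), Dhx57 (0.43), Tfdp2 (0.32), Hnrnpa1 (0.26), Hnrnpu (0.22), Sf3b3 (0.065), Snrnp200 (0.061), Atp5b (0.42), Hsp90b1 (0.037), Kmt2d (0.11), Zfp207 (0.00740), Kpnb1 (0.11), Mars (0.00468), Iars (0.10), Larp1 (0.026), Slc38a2 (0.017), Slc2a3 (0.20) and Mink1 (0.15). They were also found under TMM for Dhx57 (0.13), Tfdp2 (0.018) and Atp5b (0.11), without ribosomal RNA for Dhx57 (0.035) and Atp5b (0.012), and under DESeq2 for Tfdp2 (0.030) and Atp5b (0.11). With 1 library left out, ratios ran from −0.33 to 0.23 for Dhx57, −0.31 to 0.14 for Atp5b, −0.41 to 0.016 for Tfdp2, −0.048 to 0.78 for Lap3 and −0.010 to 0.96 for Mybl2. One read is worth at least 0.0543 RPM, so members near 1 RPM rest on few reads.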
